A study of Arabidopsis thaliana with 12 samples.

Results

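The 9-cis-epoxycarotenoid dioxygenases (NCED) and the CYP707A cytochromes P450, which stand at the regulated steps of abscisic acid (ABA) synthesis and breakdown, were followed through an ozone (O3) exposure. The 10 genes were taken by locus identifier from the 34212 loci of the deposited count table: NCED2 (AT4G18350), NCED3 (AT3G14440), NCED4 (AT4G19170), NCED5 (AT1G30100), NCED6 (AT3G24220) and NCED9 (AT1G78390), and CYP707A1 (AT4G19230), CYP707A2 (AT2G29090), CYP707A3 (AT5G45340) and CYP707A4 (AT3G19270). Measured values played no part in that rule, although the genes were picked with earlier results of these data known. RNA sequencing (RNA-seq) was done on whole rosettes of Shahdara (Sha) and Cvi-0 (Cvi), natural accessions of Arabidopsis, both of which the study treats as O3 sensitive. Plants aged 3 weeks received either clean air (CA) or O3 at 350 nL L-1 for 2 h and were harvested directly afterwards. The groups were thus Sha CA, Sha O3, Cvi CA and Cvi O3, each with 3 biological replicates, and none of them carried a mutation or transgene by its label. By the study's account, Cvi has higher stomatal conductance and takes up more O3, which it ascribes to an impaired mitogen-activated protein kinase. It describes Sha as low in ABA. The data used here hold neither the O3 dose inside the leaf nor ABA itself, and the part of these traits in the differences below was not tested. Every library came from a pool of 4 rosettes, so differences between plants within a pool were not seen.

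ABA is cut out of carotenoids in the plastid: NCED enzymes cleave violaxanthin or neoxanthin to xanthoxin, which is turned into ABA in the cytosol. CYP707A enzymes hydroxylate ABA and so start its main route of breakdown. In leaves the hormone is best known for closing stomata and for responses to drought, and O3 enters leaves through the stomata.

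Expression is given as CPM, a count scaled to a common depth and so not corrected for gene length, from library sizes with the TMM adjustment of edgeR. Differences were tested with edgeR against a minimum fold of 1.2 over 28549 genes, and a gene is called at a false discovery rate (FDR) of at most 0.05. Total counts ran from 10794686 to 33571953 per library, and the Cvi libraries were on average deeper than those of Sha. A group was taken to be at the floor when no library in it held more than 3 counts, which is 0.0941 to 0.272 CPM depending on the library. Such floors and the count intervals below cover counting error only.

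On the TAIR10.1 assembly no member overlapped another annotated gene, and each of the 6 NCED genes was a single exon. No other annotated transcript reached 90% identity over at least 50% of the length of a member. The closest pair was CYP707A1 and CYP707A3, with 82.7% identity over 1389 aligned coding positions, whereas the other pairs within each family had between 60.9% and 73.0%. Reads had been assigned by the authors to transcripts of the accession Col-0, so a read of Sha or Cvi that differed from that reference could be lost, and an accession difference at a single gene can carry that effect.

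The 250 bases before the annotated start of each member were read from the RefSeq genome of Col-0 (TAIR10.1) and searched on both strands for ACGTG (the core of the ABA-responsive element), TTGAC (the W-box core bound by WRKY factors), GCCGCC (the GCC box of ethylene response factors) and ACGCG (the core bound by CAMTA factors). ACGTG was found in 4 of the 10 members and in 22.9% of 27443 promoters of the same length, and TTGAC in 6 of 10 members and in 44.9% of promoters. GCCGCC and ACGCG were in none of the 10 members, against 1.9% and 6.9% of promoters. The 4 promoters shown belong to the members called higher with O3 in Cvi in the results below. Not shown are those of the members called lower with O3 (NCED4, CYP707A2 and CYP707A4). Of these CYP707A4 held ACGTG, NCED4 held TTGAC and CYP707A2 held neither. NCED5, called higher in Sha and not shown, also held neither. Those shown are printed 5' to 3' on the strand of the gene with ACGTG and TTGAC matches of either strand in capitals.
CYP707A3: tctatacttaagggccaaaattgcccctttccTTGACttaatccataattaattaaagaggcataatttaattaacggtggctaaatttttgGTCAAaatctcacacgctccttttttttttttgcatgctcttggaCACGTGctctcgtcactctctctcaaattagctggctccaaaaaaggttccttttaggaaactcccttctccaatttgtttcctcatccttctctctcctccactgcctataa
CYP707A1: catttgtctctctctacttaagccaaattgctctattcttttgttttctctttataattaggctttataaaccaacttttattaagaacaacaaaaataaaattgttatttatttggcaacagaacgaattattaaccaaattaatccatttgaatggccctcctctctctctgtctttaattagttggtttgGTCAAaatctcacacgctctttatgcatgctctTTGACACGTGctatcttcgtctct
NCED9: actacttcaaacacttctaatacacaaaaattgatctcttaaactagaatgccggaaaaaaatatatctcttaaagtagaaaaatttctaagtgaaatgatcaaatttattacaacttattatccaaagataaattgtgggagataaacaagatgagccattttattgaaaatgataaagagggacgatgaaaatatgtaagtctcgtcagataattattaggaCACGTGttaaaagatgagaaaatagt
NCED3: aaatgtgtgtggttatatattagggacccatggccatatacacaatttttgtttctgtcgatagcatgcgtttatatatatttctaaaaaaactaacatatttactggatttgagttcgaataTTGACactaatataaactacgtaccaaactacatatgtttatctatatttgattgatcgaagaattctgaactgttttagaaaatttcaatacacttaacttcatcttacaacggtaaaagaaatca

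These windows lie at chr5:18371022-18371271 on the minus strand (CYP707A3), chr4:10521009-10521258 on the plus strand (CYP707A1), chr1:29492876-29493125 on the minus strand (NCED9) and chr3:4834016-4834265 on the minus strand (NCED3). In CYP707A3, CYP707A1 and NCED9 the ACGTG matches of both strands overlap in the palindrome CACGTG, which 6.5% of promoters hold and which was noticed only after the matches had been seen. In CYP707A1 the first base of that palindrome is also the last base of a TTGAC match. The CYP707A1 and CYP707A3 windows moreover share an identical run of 23 bases, tttggtcaaaatctcacacgctc, which spans bases 61 to 39 before the start of CYP707A1 and bases 162 to 140 before that of CYP707A3 (part of it is in capitals above). The next longest run among the 45 pairs of members was 11 bases. NCED3 holds a single TTGAC and no ACGTG, as do NCED2 and NCED4. A match is a description of letters in the Col-0 sequence, and the windows of Sha and Cvi were not read.

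O3 moved members of both families in both directions. In Sha 3 of the 9 members with any count were called higher (NCED3, NCED5 and CYP707A3), where 17.9% of all genes were called higher, and 2 were called lower (NCED4 and CYP707A2), where 16.6% of all genes were. In Cvi 4 were called higher (NCED3, NCED9, CYP707A1 and CYP707A3) against 24.3% of all genes, and 3 were called lower (NCED4, CYP707A2 and CYP707A4) against 23.2%. The 2 of 9 lower in Sha lay near the share of all genes, and the 3 of 9 lower in Cvi not far above it. Of the 7 members off the floor in all groups, CYP707A3 had a called difference of response with Cvi above Sha (6.33% of all genes) and NCED4 one with Cvi below Sha (2.6% of all genes). For NCED3 the difference passed only without 1 library, as given below, and for NCED9 no size is given.

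**Figure D1:**
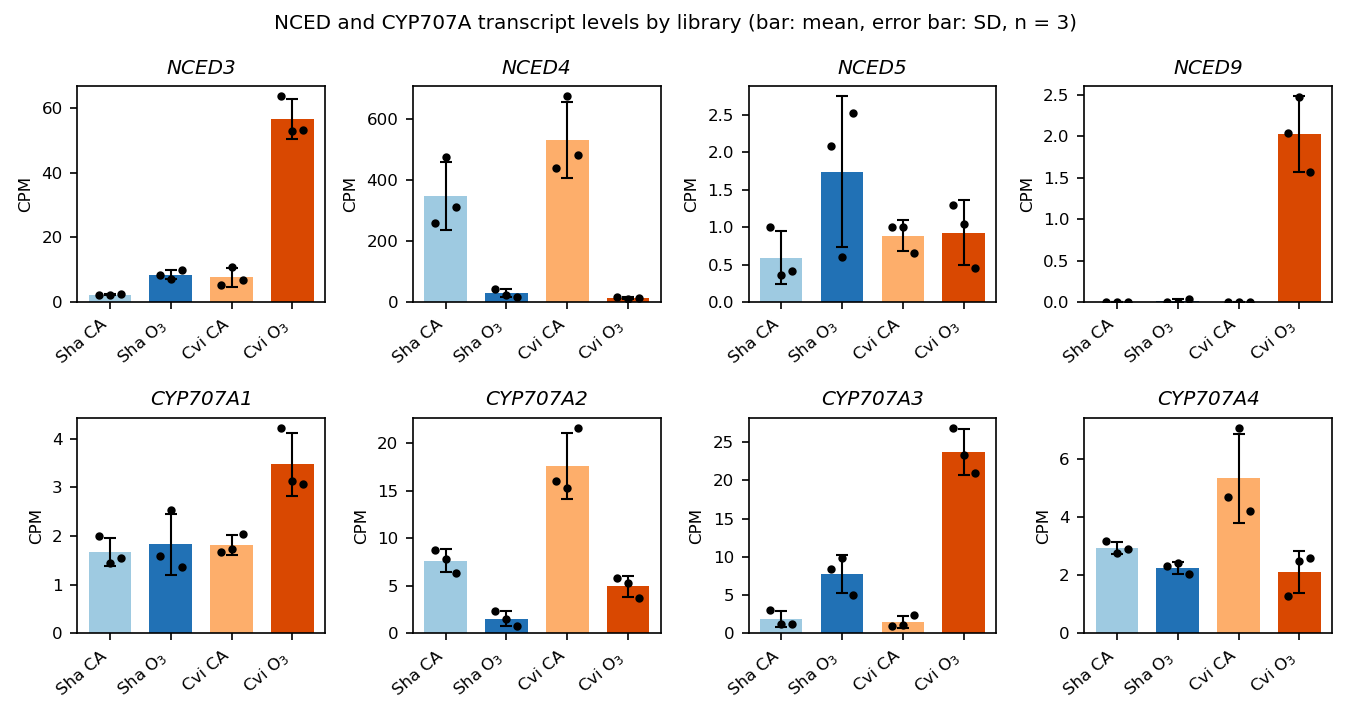
Expression in CPM (vertical axes, each starting at 0) of 8 members in the 4 groups, with points for the 3 libraries, bars for the mean and error bars for the SD. NCED3 and CYP707A3 stand highest in Cvi O3, where all 3 libraries of NCED3 lie between 53.0 and 63.7 CPM, whereas NCED4 and CYP707A2 stand lower in O3 than in CA in both accessions.

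NCED3 encodes the dioxygenase best known for ABA synthesis in drought-stressed leaves. Its 3 libraries of Sha CA had 2.09, 2.11 and 2.37 CPM, and those of Sha O3 had 8.22, 7.18 and 9.92 CPM. In Cvi it had 5.33, 10.8 and 6.71 CPM in CA and 63.7, 53.0 and 53.1 CPM in O3. All O3 libraries were above all CA libraries of the same accession, and Cvi CA reached the range of Sha O3. The rise was 1.94 on the log2 scale in Sha (SE 0.277, edgeR adjusted p = 8.79e-10) and 2.89 in Cvi (SE 0.238, adjusted p = 4.16e-26). Cvi held more NCED3 transcript than Sha in both treatments, by 1.78 on the log2 scale in CA (SE 0.275, adjusted p = 4.62e-08) and by 2.74 in O3 (SE 0.24, adjusted p = 9.37e-23). The difference between the responses was 0.96 (SE 0.365, 95% interval 0.24 to 1.67) and did not pass over all genes (adjusted p = 0.122). Without Cvi CA replicate 2, the highest of its group, that difference was 1.30 and passed (adjusted p = 0.00367, range over 20 alternatives 0.00367 to 1.0).

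NCED4, also called CCD4, encodes a carotenoid cleavage dioxygenase of the plastid that is known for turnover of carotenoids rather than for ABA synthesis, although its gene carries the family name. Transcript stood at 259, 476 and 311 CPM in Sha CA and at 42.6, 23.6 and 17.9 CPM in Sha O3. The Cvi libraries had 440.0, 676 and 482 CPM in CA and 16.1, 8.92 and 14.0 CPM in O3. The highest O3 value of either accession was therefore far under the lowest CA value. On the log2 scale the change was -3.64 in Sha (SE 0.34, adjusted p = 3.18e-19) and -5.36 in Cvi (SE 0.342, adjusted p = 3.87e-36), and it was called in every alternative run. The Cvi response was the more negative by -1.72 (SE 0.482, adjusted p = 0.012). That call was lost with DESeq2 (-1.65, adjusted p = 0.084), without Sha CA replicate 3 (-1.65), without Sha O3 replicate 1 (-1.31), without Cvi CA replicate 2 (-1.51) and without Cvi O3 replicate 2 (-1.51), with adjusted p from 0.00148 to 0.759 over 20 alternatives.

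NCED5, an enzyme that adds to the work of NCED3 in Arabidopsis under drought, was low throughout. It had 0.998, 0.363 and 0.412 CPM in Sha CA and 2.09, 0.603 and 2.53 CPM in Sha O3. Cvi had 1.00, 1.01 and 0.654 CPM in CA and 1.29, 1.04 and 0.453 CPM in O3, and the groups overlapped in both accessions. The rise in Sha passed at 1.63 on the log2 scale (SE 0.579, adjusted p = 0.0212), from 28 counts in CA and 106 in O3. The call was lost with DESeq2 (adjusted p = 0.0829), without Sha CA replicate 2 (1.41), without Sha CA replicate 3 (1.46) and without Sha O3 replicate 3 (1.32), with adjusted p from 0.000185 to 0.502 over 21 alternatives. In Cvi the value was 0.04 (SE 0.547, adjusted p = 1.0). The difference between the responses, -1.59 (95% interval -3.15 to -0.03), did not pass (adjusted p = 0.261), but did without Sha O3 replicate 2 (-2.06, adjusted p = 0.0195).

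NCED9 and NCED6 are known from seeds, where they supply ABA for dormancy. NCED9 was without a count in the 6 CA libraries and held 0, 0 and 1 count in Sha O3, but 41, 50 and 45 counts in Cvi O3, which is 2.04, 2.48 and 1.57 CPM. Only Cvi O3 stood above the floor. Against a floor of 3 counts per library NCED9 was at least 17.8-fold higher in O3 than in CA in Cvi (adjusted p = 4.71e-24). In O3 the ratio of Cvi to Sha was 112 from 136 counts against 1, with an exact 95% counting interval from 19.8 to 4460 (adjusted p = 1.39e-17). Both Sha groups were at the floor, so no size is given for the difference between the responses. Without a count in any CA library the edgeR test of that difference could not pass, so its missing call says nothing. DESeq2 called the difference (adjusted p = 0.0193), also from CA groups without a count. Seed markers were near 0 in all groups: the summed level of SESA1, SESA3, CRA1, CRC, OLEO1 and OLEO2 was 0 to 0.218 CPM, and SESA3 and CRC had no count. In O3 that sum was 0.0495 to 0.149 CPM in Cvi and 0 in Sha, and CRA1 was called higher in Cvi from 6 counts against 0 (adjusted p = 0.0353), in 13 of 20 alternatives. That call was lost without Cvi O3 replicate 1 and without any Sha O3 library. EM1, listed below among the ABA-responsive genes, was like NCED9 above the floor in Cvi O3 alone. It had 32 counts there and 0 in each of the other groups. The part of seed RNA in the NCED9 counts was not tested. NCED6 had no count in any of the 12 libraries and was not tested. NCED2, which in Arabidopsis is known from roots and flowers, held between 0 and 2 counts per library and was at the floor in all 4 groups, so neither stood above the floor at this depth.

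On the breakdown side, CYP707A3 encodes an ABA hydroxylase known for lowering ABA in vegetative tissue, for instance when plants are rehydrated. The Sha libraries had 3.08, 1.24 and 1.27 CPM in CA and 8.44, 9.89 and 5.02 CPM in O3. In Cvi the values were 0.941, 1.08 and 2.35 CPM in CA and 26.9, 23.3 and 20.9 CPM in O3. The CA groups of the accessions overlapped, and every Cvi library in O3 was above every Sha library in O3. CYP707A3 rose by 2.1 on the log2 scale in Sha (SE 0.394, adjusted p = 4.91e-06) and by 4.03 in Cvi (SE 0.381, adjusted p = 7.05e-20). The difference between these responses was 1.93 (SE 0.548, 95% interval 0.85 to 3.0, adjusted p = 0.0128), and in O3 Cvi exceeded Sha by 1.61 (SE 0.363, adjusted p = 0.000319). The call of the difference was lost with DESeq2 (1.98, adjusted p = 0.0535), without Sha CA replicate 1 (1.42), without Cvi CA replicate 1 (1.68) and without Cvi CA replicate 2 (1.76), with adjusted p from 0.000348 to 0.569 over 20 alternatives.

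CYP707A2, whose hydroxylase is known for the fall of ABA when seeds take up water, went the other way. It had 8.80, 7.85 and 6.39 CPM in Sha CA and 2.38, 1.51 and 0.83 CPM in Sha O3. Cvi libraries had 16.1, 15.3 and 21.7 CPM in CA and 5.86, 5.35 and 3.73 CPM in O3. No O3 library reached a CA library of its accession, and Cvi was above Sha in either treatment. The decrease was -2.34 on the log2 scale in Sha (SE 0.318, adjusted p = 9.79e-11) and -1.83 in Cvi (SE 0.279, adjusted p = 1.24e-08), and the responses differed by 0.51 (95% interval -0.32 to 1.34, adjusted p = 0.659). Cvi exceeded Sha by 1.21 in CA (SE 0.278, adjusted p = 0.000859) and by 1.72 in O3 (SE 0.319, adjusted p = 6.01e-06).

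CYP707A1, a hydroxylase known from guard cells and from developing seeds, had 2.00, 1.45 and 1.55 CPM in Sha CA and 1.59, 2.53 and 1.36 CPM in Sha O3, so that these groups overlapped. In Cvi it had 1.66, 1.74 and 2.05 CPM in CA and 4.22, 3.12 and 3.06 CPM in O3, without overlap. The change was 0.14 in Sha (SE 0.308, adjusted p = 0.857) and 0.93 in Cvi (SE 0.267, adjusted p = 0.00426), and the difference of 0.80 did not pass (SE 0.408, adjusted p = 0.315). A call in Cvi and none in Sha therefore does not show that the accessions responded differently. In O3 Cvi exceeded Sha by 0.94 (SE 0.279, adjusted p = 0.00911). That call was lost with DESeq2 (adjusted p = 0.0817), with the libraries of that contrast alone (0.86), without Sha O3 replicate 1 (0.78), without Sha O3 replicate 3 (0.63) and without Cvi O3 replicate 1 (0.78), with adjusted p from 0.000405 to 1.0 over 21 alternatives.

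CYP707A4 also encodes an ABA hydroxylase. It had 3.17, 2.76 and 2.92 CPM in Sha CA and 2.31, 2.41 and 2.04 CPM in Sha O3, and in Cvi 4.71, 7.08 and 4.23 CPM in CA and 1.29, 2.48 and 2.61 CPM in O3. The O3 libraries lay below the CA libraries in both accessions. In Cvi CYP707A4 had a log2 fold change of -1.31 (SE 0.287, adjusted p = 8.89e-05), while the Sha value of -0.39 did not pass (SE 0.308, adjusted p = 0.417), nor did the difference of -0.92 (95% interval -1.74 to -0.1, adjusted p = 0.229).

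**Figure D2:**
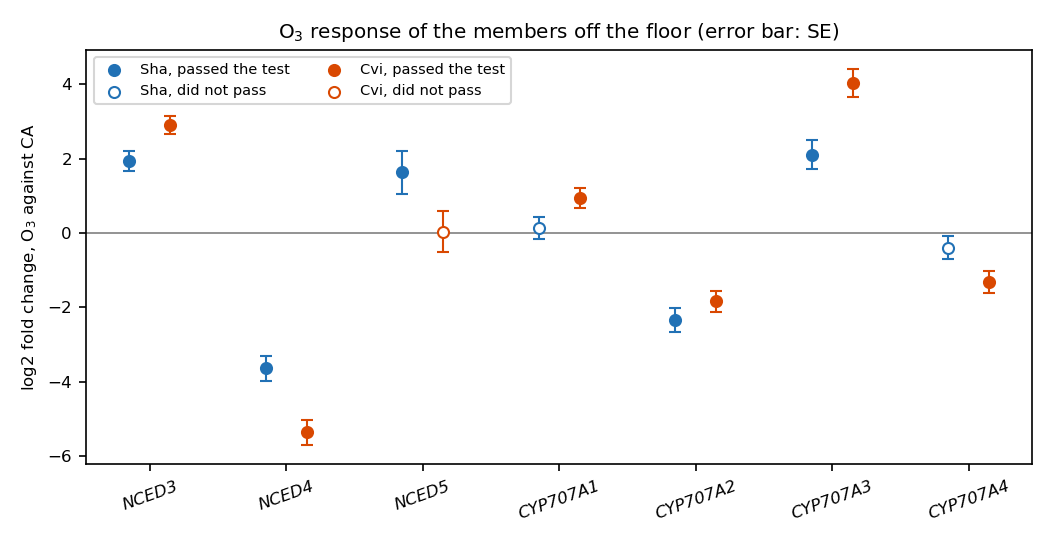
Log2 fold change of O3 against CA (vertical axis) for the 7 members that were off the floor in all groups, with Sha in blue and Cvi in orange, error bars for the SE, and filled points where edgeR passed. NCED3 and CYP707A3 are filled above 0 and NCED4 and CYP707A2 filled below 0 in both accessions, with CYP707A3 at 2.1 in Sha and 4.03 in Cvi.

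Comparing the accessions, 3 members were called higher in Cvi than in Sha CA (NCED3, CYP707A2 and CYP707A4; 8.84% of all genes) and 0 lower (9.28% of all genes). No member had a negative log2 value at an unadjusted p under 0.05 there, and DESeq2, like edgeR, called 0 lower. In O3 5 were called higher in Cvi (NCED3, NCED9, CYP707A1, CYP707A2 and CYP707A3; 18.5% of all genes) and 1 lower (NCED4; 13.9% of all genes). The 0 lower in CA and the 1 lower in O3 lay near or under those shares. For CYP707A4 the difference in CA was 0.86 (SE 0.287, adjusted p = 0.0379), which 11 of 21 alternatives did not call. Among these were DESeq2 (adjusted p = 0.334) and the fits without Sha CA replicate 1 (0.90), replicate 2 (0.82) or replicate 3 (0.80), without Sha O3 replicates 1 or 3 (0.81 each), and without Cvi CA replicates 1 (0.94) or 2 (0.60). The adjusted p ranged from 0.0159 to 1.0 over the alternatives. NCED4 in O3 stood at -1.11 (SE 0.344, adjusted p = 0.0131). It was not called with DESeq2 (adjusted p = 0.0976), without Sha O3 replicate 1 (-0.77) or without Cvi O3 replicate 2 (-0.90), with adjusted p from 0.00101 to 1.0.

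Between genes, levels were compared per kilobase of the longest annotated transcript. The make-up of each family differed between CA and O3. In CA NCED4 made up 99.2 ± 0.316% of the summed NCED level in Sha and 98.7 ± 0.121% in Cvi (SD, n = 3), and in O3 74.1 ± 10.9% and 20.4 ± 4.06%. NCED3 made up 0.551 ± 0.161% and 1.14 ± 0.158% in CA and 20.4 ± 7.64% and 74.5 ± 2.7% in O3. With NCED4 left out, the summed level of the other NCED genes was 1.09 ± 0.151 CPM per kilobase in Sha CA, 3.96 ± 0.976 in Sha O3, 3.22 ± 1.08 in Cvi CA and 22.1 ± 2.43 in Cvi O3. The lowest O3 library was above the highest CA library in Sha (2.95 against 1.25) and in Cvi (20.4 against 4.45).

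Among the CYP707A genes, CYP707A2 made up 53.1 ± 3.86% of the summed level in Sha CA and 65.2 ± 6.17% in Cvi CA, against 11.4 ± 4.07% and 14.6 ± 1.9% in O3. CYP707A3 made up 12.1 ± 4.62% and 5.12 ± 2.05% in CA and 55.7 ± 3.39% and 68.3 ± 1.41% in O3. The sum itself shifted less: it was 7.25 ± 1.28 CPM per kilobase in Sha CA and 6.77 ± 1.84 in Sha O3, where the libraries overlapped, and 13.5 ± 1.73 in Cvi CA and 17.0 ± 1.88 in Cvi O3, where they overlapped as well.

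**Figure D3:**
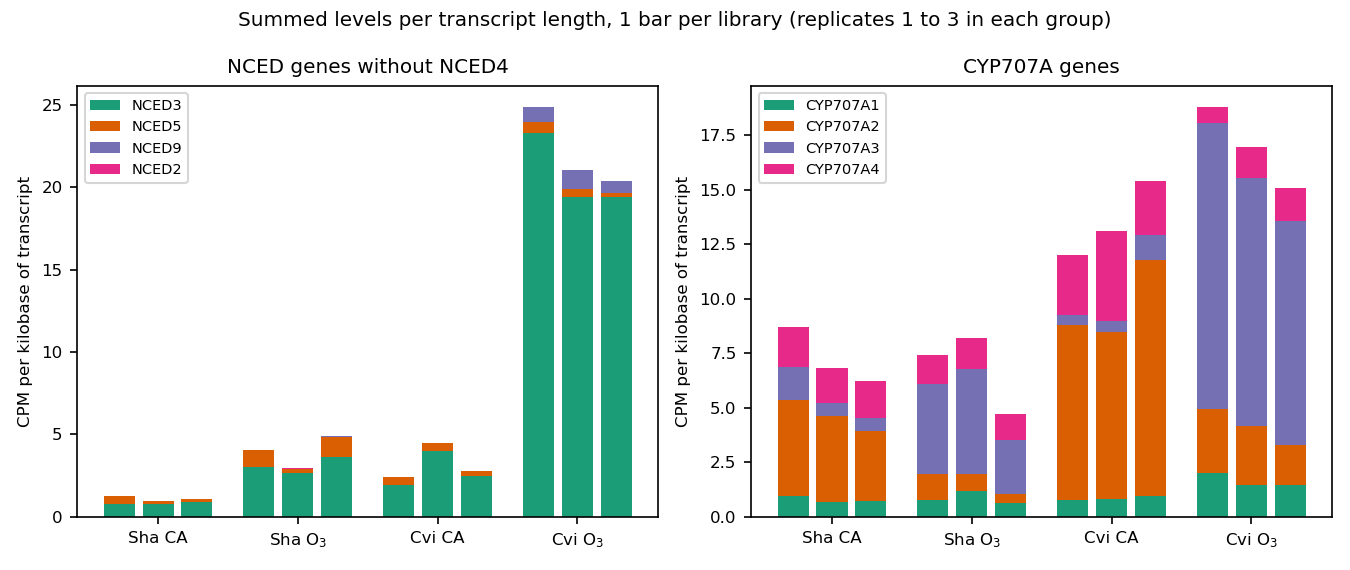
Levels in CPM per kilobase of transcript (vertical axes), stacked by gene, with a bar for each of the 12 libraries. Without NCED4 the NCED sum is largely NCED3 and stands between 20.4 and 24.9 in Cvi O3, whereas the CYP707A bars of an accession overlap in height between CA and O3, with CYP707A2 as the largest part in CA and CYP707A3 in O3.

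In the order of levels, NCED4 led in Sha CA (154.1 ± 50.03 CPM per kilobase), in Sha O3 (12.4 ± 5.73) and in Cvi CA (236 ± 55.7). CYP707A2 was next in both CA groups, at 3.84 ± 0.606 in Sha and 8.83 ± 1.74 in Cvi, followed by CYP707A4 at 1.71 ± 0.121 and 3.10 ± 0.885. In Sha O3 CYP707A3 (3.81 ± 1.23) and NCED3 (3.09 ± 0.507) followed NCED4 and overlapped each other. The order in Cvi O3 was NCED3 (20.7 ± 2.25), CYP707A3 (11.6 ± 1.46) and NCED4 (5.75 ± 1.63), none of which overlapped its neighbour, then CYP707A2 (2.49 ± 0.557), CYP707A1 (1.64 ± 0.308), CYP707A4 (1.23 ± 0.422) and NCED9 (0.934 ± 0.21), each of which overlapped the next. Other members were below 1 CPM per kilobase in each group, apart from CYP707A4 in Sha O3 (1.31 ± 0.113) and NCED3 in Cvi CA (2.79 ± 1.05).

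A rosette holds several cell types, and in pooled tissue fewer cells of a type and less RNA per cell cannot be told apart. All 5 mesophyll markers (RBCS1A, CAB3, LHCB2.1, RCA and GLDP1) fell with O3 in Sha as well as in Cvi, as did NCED4. Their summed level was 32800 to 39500 CPM in Sha CA, 7210 to 14600 in Sha O3, 42700 to 48000 in Cvi CA and 15100 to 18500 in Cvi O3. The 5 guard cell markers summed to 77.7 to 92.5, 62.0 to 83.3, 77.9 to 90.3 and 53.7 to 62.3 CPM in the same order of groups, with MYB60 called lower in Sha (not without Sha O3 replicate 3, -0.55), and MYB60 and KAT1 in Cvi (KAT1 not with DESeq2, adjusted p = 0.0774). The 4 vascular markers summed to 239 to 344, 254 to 313, 245 to 312 and 308 to 375 CPM, and in both accessions edgeR and DESeq2 called 0 of them with O3, as did an unadjusted p under 0.05. Of these XCP1 alone was called under any alternative, in 3 of 21 in Cvi, with values of 0.32 to 0.46 on the log2 scale. Root markers summed to at most 0.544 CPM, while the flower markers AP3, PI and AG summed to 4.08 to 8.58 CPM in Sha CA, 2.72 to 5.01 in Sha O3, 0.125 to 0.541 in Cvi CA and 0.297 to 0.557 in Cvi O3. AG was called lower with O3 in Sha (-1.25 on the log2 scale, adjusted p = 0.0392), in 13 of 21 alternatives, and that call was lost without Sha CA replicates 2 (-0.93) or 3 (-1.24) and without Sha O3 replicates 1 (-1.07) or 3 (-0.85). The part of cell composition in the members' changes was not tested.

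Upstream of the NCED step, 11 of 12 genes of the carotenoid route to violaxanthin and neoxanthin were called lower in O3 in each accession, against 16.6% of all genes in Sha and 23.2% in Cvi. Their median log2 value stood at -1.47 (Sha) and -1.14 (Cvi), against a median over all genes of 0 in both. DESeq2 called 10 of the 12 lower in Sha and 9 in Cvi, against 12.3% and 16.2% of all genes. Leaving out single libraries gave 10 to 11 lower in Sha and 9 to 11 in Cvi. ABA1, the zeaxanthin epoxidase, went in Sha from 647 ± 172 to 158 ± 49.2 CPM, and in Cvi from 947 ± 152 to 194 ± 11.1 CPM (SD, n = 3), called decreases with log2 values of -2.04 (SE 0.261) and -2.29 (SE 0.261). ABA4, needed for neoxanthin synthesis, had -0.92 (SE 0.149) and -1.37 (SE 0.146), and the lycopene cyclase gene LYCB had -1.79 (SE 0.182) and -2.17 (SE 0.18). The genes not called were BCH1 in Sha (-0.53) and BCH2 in Cvi (0.16), both beta-carotene hydroxylases and named here after their values had been seen. BCH1 in Sha was called with a replicate block (-0.53, adjusted p = 0.0432 by edgeR). In Cvi it was called at -0.61, in 12 of 21 alternatives, and leaving out Cvi CA replicates 1 or 3 or any Cvi O3 library ended that call, with values of -0.49 to -0.65. BCH2 was the 1 gene of the route with a called difference of response, at 1.76 (SE 0.361, adjusted p = 0.000215). The fall of this route went with that of the mesophyll markers above, and the part of those cells in it was not tested.

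Downstream, the steps from xanthoxin to ABA did not move as a block. Of 6 genes 3 were called higher in each accession, while 1 was lower in Sha and 2 in Cvi, with medians of 0.61 and 0.56. Over all genes 17.9% were called higher and 16.6% lower in Sha, and 24.3% and 23.2% in Cvi, so that 1 of 6 lower in Sha lay near that share. ABA3, the sulfurase that activates the molybdenum cofactor of the aldehyde oxidases, rose by 2.12 (SE 0.174) in Sha and 2.29 (SE 0.17) in Cvi. AAO3, the aldehyde oxidase of the last step in leaves, rose in Sha from 35.6 ± 6.79 to 72.6 ± 11.6 CPM, and in Cvi from 19.6 ± 3.03 to 51.7 ± 3.94 CPM (SD, n = 3). AAO1, a related aldehyde oxidase, rose by 1.82 (SE 0.169) in Sha and by 2.66 (SE 0.172) in Cvi, a difference of 0.85 (adjusted p = 0.0253). Its mean was 21.4 CPM in Sha CA and 8.40 CPM in Cvi CA, and 75.4 CPM in Sha O3 and 53.3 CPM in Cvi O3. The Cvi mean was thus the lower in both treatments. ABA2, the short-chain dehydrogenase that acts on xanthoxin, fell only in Cvi, from 30.5 ± 1.96 to 13.5 ± 1.11 CPM, against 18.7 ± 3.11 and 20.7 ± 1.61 CPM in Sha, and the difference of response of -1.32 passed (SE 0.224, adjusted p = 9.12e-06). For AAO1 the call of the difference was lost without Sha CA replicates 1 or 3, Sha O3 replicate 1, Cvi CA replicates 2 or 3, or Cvi O3 replicate 3, the lowest value over 20 alternatives being 0.73.

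Of 7 genes for ABA conjugates, their release and later catabolite steps, 2 were called higher in each accession and 2 lower in Cvi. Their medians were 0.38 in Sha and 0.57 in Cvi (0.24 and 0.45 without the 1 gene at the floor in both CA and O3). Over all genes 17.9% were called higher in Sha, and 24.3% higher and 23.2% lower in Cvi, where both counts lay near those shares. The ABA glucosyltransferase gene UGT71C5 rose by 1.77 (SE 0.158) in Sha and 1.98 (SE 0.155) in Cvi. UGT71B6, another ABA glucosyltransferase gene, rose from 3.54 ± 0.964 to 42.7 ± 2.56 CPM in Sha (3.55 on the log2 scale, SE 0.219). At a far lower level it also rose in Cvi, from 0.0974 ± 0.0556 to 0.359 ± 0.15 CPM (1.81, SE 0.616, adjusted p = 0.00452), and the difference of response of -1.74 did not pass (adjusted p = 0.144). Loss of Cvi reads against the Col-0 transcript and lower expression cannot be told apart at UGT71B6. The neighbouring locus AT3G21790 had log2 fold changes of -0.02 in Sha (SE 0.178, not called) and -1.89 in Cvi (SE 0.191), a difference of -1.88 (adjusted p = 4.67e-09). BGLU18, a glucosidase that releases ABA from its glucose ester, had 336 ± 32.5 and 340 ± 152 CPM in Sha CA and O3 and fell in Cvi from 581 ± 123 to 220 ± 46.2 CPM (SD, n = 3). The difference of -1.42 (adjusted p = 0.0241) was called in 13 of 20 alternatives. It was lost with the quasi-likelihood test of edgeR, with DESeq2 and without Sha CA replicate 2, Sha O3 replicate 1, Cvi CA replicate 2 or Cvi O3 replicate 2, and over the alternatives it lay between -1.71 and -1.07.

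All 4 ABA transporter genes were called higher in Sha (17.9% of all genes) and 2 of 4 in Cvi (24.3% of all genes), with medians of 1.56 and 2.37. The Sha count was 2 without Sha O3 replicate 2 and with DESeq2, and 3 without any of 7 other libraries. ABCG40, an importer of ABA, rose in Sha from 43.9 ± 26.7 to 1923 ± 1334 CPM, and in Cvi from 9.24 ± 2.23 to 3994 ± 455 CPM (SD, n = 3), by 5.45 and 8.75 on the log2 scale, and the difference of 3.30 passed (SE 0.819, adjusted p = 0.00251). DTX50, an ABA efflux carrier, rose by 2.28 (SE 0.507) and 4.29 (SE 0.497), with an uncalled difference of 2.01 (adjusted p = 0.0616) that was called with a replicate block (2.19, adjusted p = 0.0077). The DTX50 difference was also called with another scaling (adjusted p = 0.0483), with a filter (0.0492) and without a minimum change (0.0458), all by edgeR. It was called too without Sha CA replicate 2, Sha O3 replicate 1, or Cvi CA replicates 1 or 2 (1.555 to 2.437). ABCG25, an ABA exporter, was called at 0.84 in Sha (adjusted p = 0.0408), in only 9 of 21 alternatives and with values from 0.33 to 1.15, and had 0.45 in Cvi (adjusted p = 0.285). Leaving out Sha CA replicates 1 or 3, Sha O3 replicate 2, Cvi CA replicates 1 or 3, or any Cvi library in O3 ended the ABCG25 call. NPF4.6, an ABA importer, was called at 0.75 in Sha (SE 0.207, adjusted p = 0.00857), but not without Sha O3 replicate 2 (0.43, adjusted p = 0.127) or with DESeq2 (adjusted p = 0.0638), and had 0.37 in Cvi (adjusted p = 0.221). It is named here after its values had been seen.

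**Figure D4:**
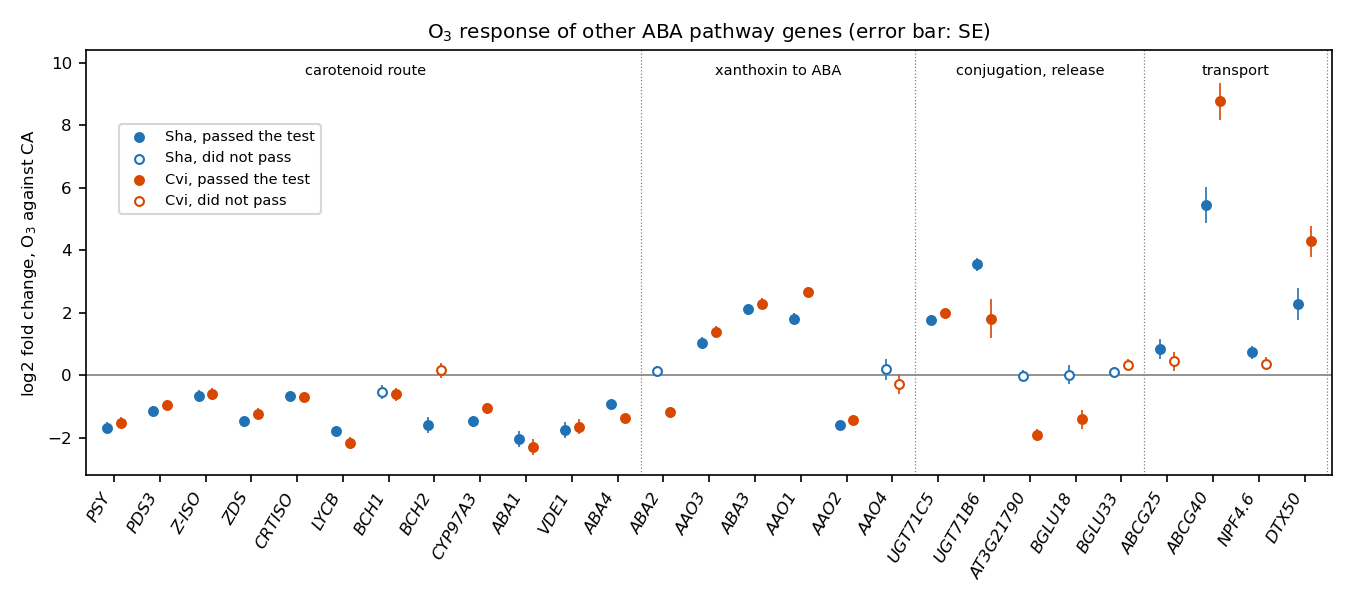
Log2 fold change of O3 against CA (vertical axis, error bars for the SE) for 27 genes on the route before and after the NCED step, Sha in blue and Cvi in orange, filled where edgeR passed. The carotenoid genes lie below 0 except BCH2 in Cvi (0.16), ABA3, AAO3 and AAO1 lie above 0 in both accessions, and ABCG40 reaches 5.45 in Sha and 8.75 in Cvi.

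Among 22 genes known to respond to ABA, 3 were called higher and 4 lower in Sha, and 4 higher and 11 lower in Cvi. Their medians were -0.32 and -0.78. In Sha the median was -0.40 without the 2 genes at the floor in both CA and O3, and with EM6 at the ratio of its counts. Beside the shares of all genes (17.9% and 16.6% in Sha, 24.3% and 23.2% in Cvi), both Sha counts and the 4 higher in Cvi lay near or under background, and the 11 lower in Cvi above it. The lower count in Sha rested on single libraries: it was 1 without Sha CA replicate 2 or Sha O3 replicate 3 and with DESeq2, 2 without Sha O3 replicate 1, and 9 without Sha O3 replicate 2. In Cvi a replicate block gave 6 higher and 11 lower. RD26, a NAC transcription factor, had log2 fold changes with O3 of 2.89 in Sha (SE 0.463) and 4.69 in Cvi (SE 0.462), both called. Its difference of 1.79 (adjusted p = 0.0763) was called with a replicate block (1.91, adjusted p = 0.0145). P5CS1, the proline synthesis enzyme, fell in Sha from 99.0 ± 26.3 to 28.6 ± 2.4 CPM, and in Cvi from 298 ± 133 to 43.8 ± 4.38 CPM (SD, n = 3). GOLS2, a galactinol synthase, had a log2 fold change of -2.90 in Cvi (SE 0.791, adjusted p = 0.00181) and -0.70 in Sha (SE 0.763, adjusted p = 0.549). Without Sha O3 replicate 2 its Sha value was -2.52 and called (adjusted p = 0.000676). In the main fit of all libraries the GOLS2 difference between the responses was -2.20 and did not pass (adjusted p = 0.258). Among the alternatives that difference passed only without Sha CA replicate 2 (-3.22, adjusted p = 0.0407). The other genes called higher, named after their values had been seen, were ABI5 and EM6 in both accessions and EM1 in Cvi. The ABI5 call in Sha was lost without Sha CA replicate 1 (1.31) and without Sha O3 replicate 2 (1.10). LEA4-5, a late embryogenesis abundant protein gene, was the 1 gene of the 22 with a called difference of response (0 higher and 1 lower, against 6.33% and 2.6% of all genes), at -2.03 (SE 0.701, adjusted p = 0.0499), and is named after its values had been seen. That call held in 5 of 20 alternatives, and it was lost with a replicate block (-2.04, adjusted p = 0.0701) and without any library other than Sha CA replicate 2, Sha O3 replicate 3 or Cvi O3 replicate 3, with values of -1.59 to -2.10. The block instead gave 3 higher and 0 lower (7.16% and 3.26% of all genes with the block), namely RD26, HB12 (1.04, adjusted p = 0.000603) and RD20 (1.46, adjusted p = 0.026), the last 2 named after their values had been seen, and leaving out single libraries gave 0 to 2 higher and 0 to 4 lower.

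The genes whose pattern over the 12 libraries was most like a member's were ranked by the root mean square difference of log2(CPM + 1) after centring each gene, among 15312 genes of at least 5 CPM. The nearest to NCED3 were AT2G16870 (0.238), COX19-1 (AT1G66590, 0.311) and RBOHF (AT1G64060, 0.336), a subunit of NADPH oxidase. AT2G16870 had group means of 1.34, 4.74, 4.35 and 30.5 CPM in Sha CA, Sha O3, Cvi CA and Cvi O3. The nearest to CYP707A3 were AT1G22190 (0.307), AT1G24530 (0.315) and AT5G56980 (0.347), of which AT1G22190 had means of 22.1, 60.7, 18.6 and 155 CPM in that order. The libraries share their groups, so likeness over them describes the 4 group means above all.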

How the data were processed

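Estimated counts per gene were deposited for rosettes of Sha and Cvi in CA or O3 (12 libraries). By the methods and processing notes of the study, the authors trimmed reads with Trimmomatic 0.33 and assigned them with kallisto to the AtRTD2 transcripts. No normalisation had been applied. Of the values used, 69.4% were not whole and all were rounded. The table has 6 further columns, of samples not analysed here, which were left unread. How transcripts were summed to genes is not given in the sources used here.

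Loci without a count (5663) were removed. edgeR 4.0.16 in R 4.3.3 was fitted to the 12 libraries together (TMM, 1 mean per group, likelihood-ratio glmTreat at a fold of 1.2, Benjamini-Hochberg over 28549 genes). The study prints its limit as a log2 value of 1.2, and this reading was run as an alternative, beside DESeq2 1.42.0, the edgeR quasi-likelihood test, another scaling, a filter, a replicate block, unrounded counts and each library left out. The fit was tested on simulated counts for Sha O3 against Sha CA (21650 genes), where 64.6% of genes changed by 1 on the log2 scale and 97.1% of those changed by 2 were recovered. Only 96 and 104 genes were so changed, all at a mean of at least 1 CPM, and libraries were drawn independently. In the data 17.9% of genes were called higher and 16.6% lower in Sha, so these rates do not give the power of the tests above.

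Same-numbered libraries deviated together from their group means over 19107 genes between Sha CA and Sha O3 (r of 0.455 to 0.626) and between the accessions in CA (0.27 to 0.487), but not between the Cvi treatments (-0.121 to 0.135) or between the accessions in O3 (-0.175 to 0.038). The first pairs of groups therefore looked paired by number, from the data alone, since the labels give only numbers. The main fit did not use this pairing, and the block was run as an alternative.

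The members and gene lists were chosen with earlier results of these data known. All 10 members are named. Of the other lists, fixed genes of the pathway and the 2 largest called changes per list and accession at a mean of at least 1 CPM are named, besides exceptions stated as such. Loci were matched to RefSeq (33437 of 34212), and copies were sought with blastn 2.17.0.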

Additional observations from a re-analysis of the deposited data

Results flagged for a closer look

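The interaction term of edgeR passed for the O3 response of Cvi minus that of Sha in the following genes, each with 3 libraries per group. Among the members these were NCED4, with a log2 difference of -1.72 (adjusted p = 0.012), and CYP707A3, with 1.93 (adjusted p = 0.0128). Among the other pathway genes named by rule these were ABA2 at -1.32 (adjusted p = 9.12e-06), BGLU18 at -1.42 (adjusted p = 0.0241), ABCG40 at 3.3 (adjusted p = 0.00251), AAO1 at 0.85 (adjusted p = 0.0253) and AT3G21790 at -1.88 (adjusted p = 4.67e-09). Single outlying samples were not tested within the groups of 3 libraries.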

How the results depend on the processing

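The replicate block changed no member's call and left the member counts at 3 higher and 2 lower in Sha, 4 and 3 in Cvi, 1 and 1 for the difference of response, 3 and 0 in CA and 5 and 1 in O3. A log2 minimum of 1.2 in place of a fold of 1.2 gave 0 members higher and 0 lower for the difference of response, 0 higher for Cvi against Sha CA, and 2 higher and 0 lower in O3. With that minimum O3 left 2 members higher in Sha (NCED5 lost, adjusted p = 0.502) and 3 higher and 2 lower in Cvi, where CYP707A1 (0.93, adjusted p = 1.0) and CYP707A4 (-1.31, adjusted p = 0.476) were lost. DESeq2 gave 0 members lower for the difference of response (1.04% of all genes with DESeq2) and 1 higher (5.08% of all genes), which was NCED9 and no longer CYP707A3 (adjusted p = 0.0535). For Cvi against Sha it gave 0 lower in O3 (8.16% of all genes with DESeq2), and it lost CYP707A1 in O3 (adjusted p = 0.0817) and CYP707A4 in CA (adjusted p = 0.334). Leaving out each library in turn gave 0 to 1 members higher and 0 to 2 lower for the difference of response, and 0 to 2 lower for Cvi against Sha O3. Over all genes these fits called 4.87% to 6.58% higher and 1.76% to 3.14% lower for the difference. For Cvi against Sha O3 they called 11.5% to 15.2% lower. Of 444 values with a library left out, over 37 member contrasts, 412 kept direction and side of the threshold, 22 lost the call, 3 gained one and 7 changed sign without a call. Those 7 were NCED5 in Cvi without Sha O3 replicate 2 (-0.03), Cvi CA replicate 3 (-0.13), Cvi O3 replicate 1 (-0.28) or Cvi O3 replicate 2 (-0.06), CYP707A1 in Sha without Sha O3 replicate 2 (-0.21), CYP707A3 between accessions in CA without Sha CA replicate 1 (0.20) and CYP707A4 between accessions in O3 without Cvi O3 replicate 1 (0.19). Over the libraries left out these ranged from -0.278 to 0.385, -0.211 to 0.446, -0.816 to 0.195 and -0.249 to 0.188. Of 326 values under other settings 305 kept both and 21 lost the call, and the cause of these changes was not tested. Over all genes the log2 minimum gave 2075 higher and 880 lower in Sha (5105 and 4744 with the fold), 3773 and 1551 in Cvi (6948 and 6626), 464 and 66 for the difference (1806 and 742), 963 and 990 in CA (2523 and 2649) and 1774 and 974 in O3 (5285 and 3958). DESeq2 gave 298 lower for the difference, 1517 and 1761 in CA and 2329 lower in O3, and the quasi-likelihood test 489 lower for the difference. NCED2 and NCED6 in all groups, and NCED9 outside Cvi O3, were at the floor, under which no difference was detectable at this depth. Of the pathway lists the log2 minimum left 4 carotenoid genes lower in Sha and 2 in Cvi, and 1 and 4 ABA-responsive genes lower.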
